A study of Mus musculus with 21 samples.

Results

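Short 3′ UTR intervals were followed in adult mouse heart by a method that marks newly made RNA. The deposited table divides annotated 3′ UTRs into 208307 intervals. Where intervals overlapped on one strand, the most read of them was kept, which left 120310. An interval was counted as short when it spanned at most 300 bases, lay outside the mitochondrial genome and held at least 2000 reads summed over all 21 libraries. This gave 2954 short intervals. The other 9722 kept intervals with at least 2000 reads, 14 of them mitochondrial, served for comparison. Neither length nor reads use the measured conversions. The read limit sums all mice, so an interval can pass it through the genotype in which it is high.

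The RNA came from the left ventricular free wall, with 1 library for each of 21 mice, all in 1 sequencing pool. All mice carried Myh6MCM Tg/0, a Cre recombinase that tamoxifen activates, driven by the cardiomyocyte promoter of Myh6. All received tamoxifen at 6 to 8 weeks of age on 4 days, and 4-thiouracil 2 weeks later. The hearts were removed 6 hours past that injection. The 4 groups were Lmna +/+ with Uprt Tg/0 (n = 8, 4 females and 4 males), Lmna F/F with Uprt Tg/0 (n = 6, 4 females and 2 males), Lmna F/F without Uprt (n = 4, 2 of each sex) and Lmna +/+ without Uprt (n = 3, all male). Every group had received 4-thiouracil, so the mice without Uprt give the background of the measure and not an unlabelled heart. The labels name no promoter for Uprt. They give each mouse a number without saying what its order marks. All 7 mice without Uprt and 3 with it have the higher numbers, and the other 11 with Uprt the lower ones. Median rates in those 3 were 0.168 to 0.171%, above all 7 without Uprt. The table pairs its intervals with transcript IDs, of which 0 of 2436 matched the supplied gene table, so neither gene names nor cell type markers could be used. The labelled tissue was therefore not checked by markers, and no interval could be assigned to Lmna or to any other gene.

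A 3′ UTR is the stretch of an mRNA between the stop codon and the poly(A) tail, where microRNAs and RNA-binding proteins attach. Many genes end their mRNAs at more than one poly(A) site, so a gene can have shorter and longer 3′ UTRs. The enzyme uracil phosphoribosyltransferase (Uprt) turns 4-thiouracil into a nucleotide that enters new RNA. Iodoacetamide then alkylates the thiol group, and reverse transcription reads the altered base as C, which appears as a T>C conversion. Lmna encodes lamins A and C, filament proteins of the nuclear lamina. The libraries start from the poly(A) tail, so most reads fall near the ends of 3′ UTRs.

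The name "short 3′ UTR" fits only some of these intervals. For 1242 of the 2954 (42.0%), the table gives the transcript at most 300 bases of 3′ UTR in all, and these are called whole short 3′ UTRs. The other 1712 are short pieces of a longer 3′ UTR that the table splits. Intervals of one transcript share their RNA: 867 short intervals had a transcript ID in common with another short interval. Within 100 bases of another interval of the same strand, which is the read length, lay 321 of them, so that a read could be counted in both. The median length was 153 bases, with a range of 2 to 300, against 1414 bases among the other intervals. Short intervals had a median of 24.1% T against 28.8%, and a median of 16.7 covered T bases per read against 24.3. The whole short 3′ UTRs had a median of 26.9% T and the pieces 22.0%. An interval of the opposite strand overlapped 130 short intervals (4.40%) and 8.97% of the other intervals.

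The short intervals held 179217467 of 808927565 reads on kept intervals (22.2%). Libraries held 25947355 to 50951631 reads on kept intervals and 5938684 to 11729452 on short ones. Read numbers were uneven: the 8 most read short intervals held 28.1% of all short interval reads, while the median was 6839 reads. All 21 libraries had reads on 2952 of the short intervals. The share of reads on short intervals was 22.6% ± 0.598 in Lmna +/+ without Uprt (n = 3, SD), 21.5% ± 1.81 in Lmna F/F without Uprt (n = 4, SD), 22.2% ± 1.04 in Lmna +/+ with Uprt (n = 8, SD) and 22.2% ± 1.74 in Lmna F/F with Uprt (n = 6, SD). The widest gap between genotypes, -1.13 percentage points for Lmna F/F minus +/+ without Uprt, exceeded the SD of the Lmna +/+ mice but not that of the Lmna F/F mice.

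The conversion rate, which is T>C conversions as a percentage of covered T bases, was higher in every mouse with Uprt than in any mouse without. The median rate over the short intervals of a library was 0.0414, 0.0635 and 0.0697% in the 3 Lmna +/+ mice without Uprt (mean 0.0582% ± 0.0149, SD). It ran from 0.0491 to 0.0820% in Lmna F/F without Uprt (mean 0.0670% ± 0.0163, n = 4, SD). With Uprt the lowest, median and highest values were 0.136, 0.169 and 0.246% in Lmna +/+ (mean 0.178% ± 0.0391, n = 8, SD). They were 0.168, 0.192 and 0.235% in Lmna F/F (mean 0.198% ± 0.0289, n = 6, SD). All 14 mice with Uprt thus lay above all 7 without, and the ratio of group means was 3.06 in Lmna +/+ and 2.96 in Lmna F/F. The Lmna genotypes overlapped with and without Uprt.

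**Figure D1:**
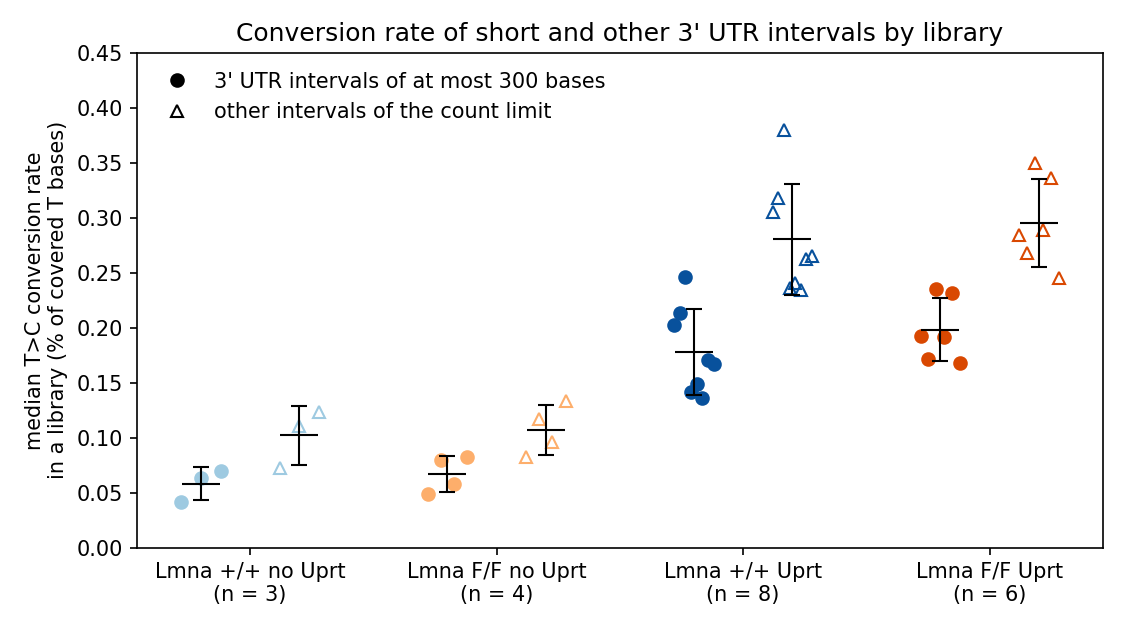
Median T>C conversion rate of each library, as a percentage of covered T bases, over the short intervals (filled circles) and the other intervals of the count limit (open triangles), by group; bars give the mean and SD. All 14 mice with Uprt lie above the 7 without in both sets, and the other intervals lie above the short ones in 21 of 21 libraries.

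The median rate of short intervals was below that of the other intervals in every library. The other intervals had library medians of 0.102% ± 0.0268 in Lmna +/+ without Uprt (n = 3, SD), 0.107% ± 0.0228 in Lmna F/F without Uprt (n = 4, SD), 0.280% ± 0.0509 in Lmna +/+ with Uprt (n = 8, SD) and 0.295% ± 0.0401 in Lmna F/F with Uprt (n = 6, SD). They exceeded the short intervals in 21 of 21 libraries, by a factor of 1.45 to 1.77. Their ratio of Uprt to none was 2.75 in Lmna +/+ and 2.76 in Lmna F/F, so the gap between short and other intervals was present without Uprt too.

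Pooled over all covered T bases of a library, so that intervals with many reads count most, the contrast was smaller. The pooled rate of short intervals was 0.126% ± 0.0269 in Lmna +/+ without Uprt (n = 3, SD) and 0.192% ± 0.0184 with Uprt (n = 8, SD). In Lmna F/F it was 0.152% ± 0.0161 without Uprt (n = 4, SD) and 0.205% ± 0.0153 with Uprt (n = 6, SD). The highest mouse without Uprt, at 0.174%, lay just under the lowest with Uprt, at 0.175%. Uprt and none differed by 0.0660 percentage points in Lmna +/+ and 0.0530 in Lmna F/F. Without the 8 most read intervals these differences were 0.0681 and 0.0560, but the mice overlapped, with up to 0.205% without Uprt and from 0.180% with it. Counted by reads, 2.39% ± 0.464 of short interval reads carried a conversion in Lmna +/+ without Uprt (n = 3, SD) and 3.58% ± 0.326 with Uprt (n = 8, SD). The Lmna F/F shares were 2.94% ± 0.304 (n = 4, SD) and 3.87% ± 0.240 (n = 6, SD). Here 12 of the 14 mice with Uprt lay above every mouse without. The pooled rate of the other intervals was 0.136% ± 0.0175 without Uprt (n = 3, SD) and 0.209% ± 0.0240 with it (n = 8, SD) for Lmna +/+, and for Lmna F/F 0.140% ± 0.0128 (n = 4, SD) and 0.222% ± 0.0155 (n = 6, SD). Pooled, the short intervals were thus above the others in 6 libraries, 5 of them without Uprt, and below in 15. With the 14 mitochondrial intervals left out of the others, they were below in all 21.

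Whole short 3′ UTRs and pieces of longer ones differed in opposite directions with and without Uprt. Without Uprt, the median rate of the pieces was below that of the whole short 3′ UTRs in 7 of 7 libraries, with group means of 0.0491% ± 0.0167 against 0.0669% ± 0.0131 in Lmna +/+ (n = 3, SD). The Lmna F/F means were 0.0572% ± 0.0177 against 0.0756% ± 0.0153 (n = 4, SD). With Uprt it was above in 14 of 14 libraries, with 0.202% ± 0.0492 against 0.157% ± 0.0314 in Lmna +/+ (n = 8, SD). In Lmna F/F with Uprt the means were 0.226% ± 0.0384 and 0.168% ± 0.0196 (n = 6, SD). When each interval's rate was first averaged over the mice of a group, the 2 kinds lay closer without Uprt. The medians were then 0.0668% at pieces and 0.0730% at whole short 3′ UTRs in Lmna +/+, and 0.0789 and 0.0843% in Lmna F/F. With Uprt they were 0.238 and 0.177% in Lmna +/+, and 0.255 and 0.184% in Lmna F/F. The pieces held fewer reads, with a median of 5134 against 11782, and T content and read number differed between both kinds as given here. Their part in the difference was not tested.

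Among short intervals the rate changed little with length above 50 bases. For each interval, the rate was averaged over the mice of a group, and the median was taken in bins of length. In Lmna +/+ with Uprt it was 0.134% at 1 to 50 bases (125 intervals), and 0.202, 0.219, 0.226, 0.210 and 0.215% in the bins of 50 bases that follow up to 300. Above the limit it was 0.219% at 301 to 500 bases and rose to 0.260, 0.318 and 0.369% at 501 to 1000, 1001 to 3000 and over 3000 bases. The rise was thus seen above 500 bases, and the bins on either side of 300 bases differed little. Over the 2950 short intervals with a T, Spearman's rho of the rate in Lmna +/+ with Uprt was 0.013 with length and -0.22 with summed reads. Those points share libraries, and depth and base composition differ among them.

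**Figure D2:**
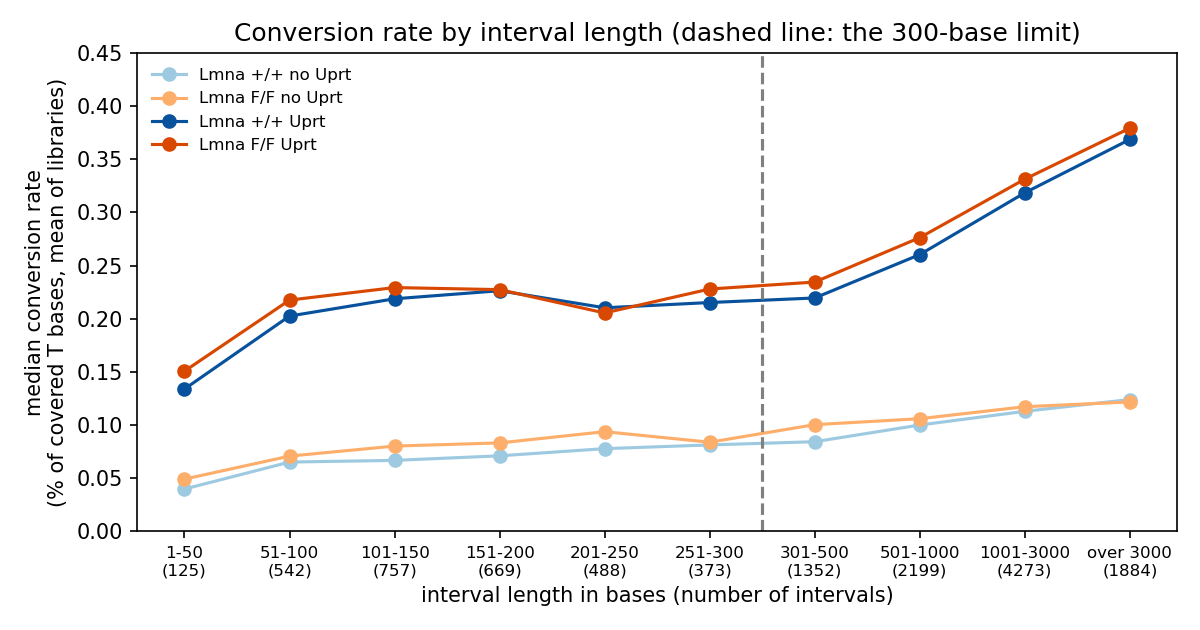
Median conversion rate (percentage of covered T bases, averaged over the libraries of a group) by interval length in bases, with the number of intervals in each bin and the 300-base limit as a dashed line. In Lmna +/+ with Uprt the bins from 51 to 500 bases lie between 0.202 and 0.226%, and the last bin reaches 0.369%.

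The gap to the other intervals was also seen within ranges of read number. Short intervals were ranked by reads and divided into 4 equal classes. In the class with fewest reads, the median rate in Lmna +/+ with Uprt was 0.259%, against 0.354% for other intervals in the same read range. In the next classes it was 0.250 against 0.346% and 0.221 against 0.313%. In the most read class it was 0.128 against 0.244%, although the short intervals there held more reads (median 49704 against 39928.5) and fewer covered T bases per read (18.8 against 24.4).

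At single intervals the test asked whether the odds of a conversion were higher with Uprt, in 1 edgeR fit of all 21 libraries. It needed at least 50 conversions summed over libraries, which 2581 short intervals had and 373 had not, 10 of them without any conversion. An interval that passed through its counts in the mice with Uprt had to differ, so the counts that follow describe the tested intervals only. Of the 2581, 1276 (49.4%) were called higher with Uprt at an adjusted p under 0.05 (Benjamini-Hochberg), where 61.2% of all 12062 intervals tested and 64.4% of the 9481 other intervals were. In Lmna +/+ mice alone 678 were called higher (26.3%), where 38.4% of all were. Among Lmna F/F mice alone 896 were (34.7%), where 48.2% of all were. Called lower were 4 in Lmna +/+ alone (0.0497% of all), which was 2 without Lmna +/+ no Uprt replicate 2, and 3 in Lmna F/F alone (0.108% of all), which was 1 without Lmna F/F Uprt replicate 2 or Lmna F/F no Uprt replicate 3 or 4. Of the other intervals these shares were 0.0211 and 0.105%. Without Lmna +/+ no Uprt replicate 1 the Lmna +/+ count was 413. In a fit of the 10 mice with the higher numbers, 3 of them with Uprt, 21 short intervals were called higher and 0 lower, and the median log2 odds ratio was 0.84. The median log2 odds ratio of the tested short intervals was 1.13, with quartiles of 0.46 and 2.00, against 1.29 for the other intervals. It was 0.94 at whole short 3′ UTRs, of which 51.0% were called, and 1.37 at the pieces, of which 48.2% were called. With intervals that a group holds at 0 set to a floor of 3 conversions in that group, the median of the short intervals was 1.11. The share called rose with depth, from 36.7% in the least read of the 4 classes to 63.7% in the most read one, and at other intervals in those read ranges from 44.8 to 78.5%.

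**Figure D3:**
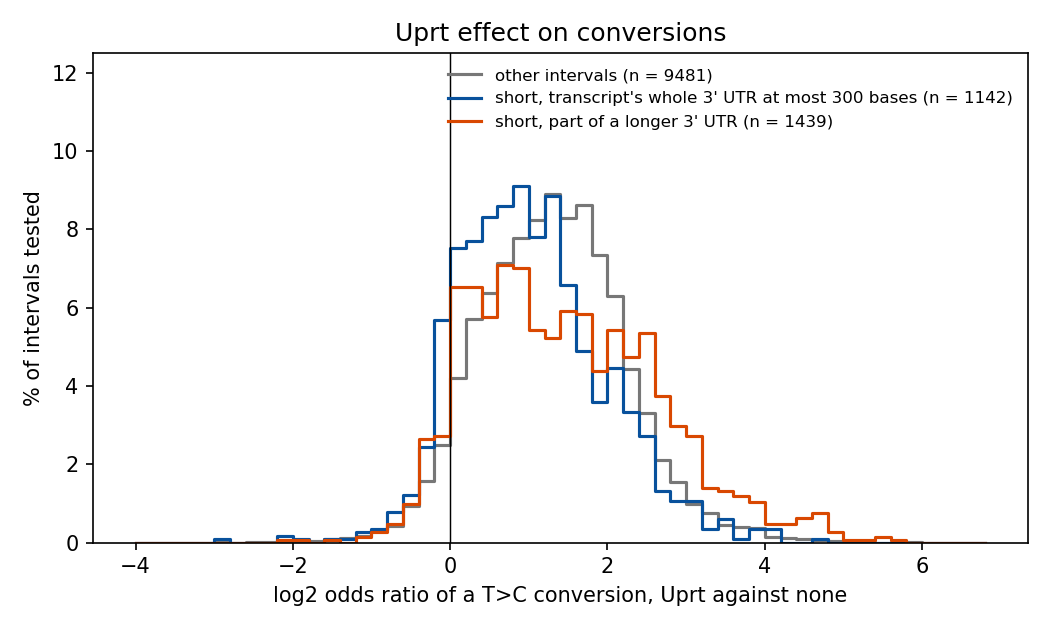
Distribution of the log2 odds ratio of a T>C conversion, Uprt against none, as the percentage of tested intervals in steps of 0.2, for other intervals (n = 9481), whole short 3′ UTRs (n = 1142) and pieces of longer 3′ UTRs (n = 1439). The medians are 1.29, 0.94 and 1.37, and the pieces reach further to the right.

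The 8 most read short intervals showed a wide range of Uprt effects. The most read one, at chr9:66935174-66935445 (minus strand, 272 bases, a whole short 3′ UTR), held 9577295 reads. Its rate was 0.193, 0.245 and 0.228% in Lmna +/+ without Uprt and 0.207, 0.189, 0.188 and 0.227% in Lmna F/F without. With Uprt the lowest, median and highest rates were 0.182, 0.213 and 0.294% in Lmna +/+ and 0.192, 0.236 and 0.273% in Lmna F/F. All 4 groups overlapped, and the log2 odds ratio was 0.08 ± 0.09 (SE, edgeR adjusted p = 0.469). Its rate without Uprt was thus above that of most short intervals.

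The interval at chr7:4521304-4521366 (minus strand, 63 bases, 5554035 reads) showed separate groups. Its rate was 0.0332, 0.0371 and 0.0358% in Lmna +/+ without Uprt and 0.0318, 0.0327, 0.0400 and 0.0371% in Lmna F/F without. With Uprt the Lmna +/+ mice spanned 0.0578 to 0.0987% (median 0.0782%), and the Lmna F/F mice 0.0706 to 0.0911% (median 0.0757%). No mouse with Uprt overlapped those without, and the log2 odds ratio was 1.05 ± 0.10 (SE, edgeR adjusted p = 2.23e-08).

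A piece at chr5:122244734-122244917 (plus strand, 184 bases, 8328603 reads) was also separate, with 0.0371 to 0.0486% in the 7 mice without Uprt and 0.0543 to 0.0981% in the 14 with it. Its log2 odds ratio was 0.76 ± 0.10 (SE, edgeR adjusted p = 2.30e-06). The other calls among the 8 were chr4:130209019-130209256 (log2 odds ratio 1.35), chr7:127804607-127804900 (0.70), chr2:113877763-113877946 (0.49), chr14:30933495-30933686 (0.44) and chr1:135779811-135779998 (1.78). Of the chromosome 4 reads 9.97% were multimapped, so copies elsewhere in the genome may share them. DESeq2 on the same table gave these 7 called intervals near identical odds ratios but called none of them, with adjusted p from 0.123 to 0.727.

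The chromosome 1 interval (188 bases, plus strand) fell into 2 levels inside groups. Its rate was 0.0295, 0.0359 and 0.0341% in Lmna +/+ without Uprt. In Lmna F/F without Uprt 3 mice had 0.0336, 0.0370 and 0.0387% and the other 0.651%. In Lmna +/+ with Uprt 4 mice lay between 0.572 and 0.636% and the other 4 between 0.0514 and 0.0898%. In Lmna F/F with Uprt 2 mice had 0.600 and 0.633% and the other 4 lay between 0.0587 and 0.105%. The call (edgeR adjusted p = 0.0480) was lost when any 1 of 13 libraries was left out, with adjusted p up to 0.139, and the estimate without Lmna F/F no Uprt replicate 3 was 2.39.

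Such uneven rates occurred at other short intervals. Of 631 short intervals with at least 1000 conversions, 66 (10.5%) had a group in which the highest mouse was at least 10 times the lowest, against 7.62% of 3175 other intervals. The rule for this count was chosen after the values were seen. The table gives totals over an interval and no base positions, so whether 1 position carries the conversions was not tested.

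The 8 largest Uprt effects among called intervals with at least 200 conversions mostly lay where the rate was close to 0 without Uprt, at 5 pieces and 3 whole short 3′ UTRs. The conversions were summed over all mice, and most of the 8 met that limit through the mice with Uprt. Choosing the largest effects among them favours a rate near 0 without Uprt. The values that follow thus describe the chosen intervals only. The whole short 3′ UTR at chr17:34168390-34168671 (plus strand, 282 bases) had 1.21 to 2.43% in Lmna +/+ with Uprt (median 1.56%, n = 8) and 0.696 to 2.64% in Lmna F/F with Uprt (median 1.94%, n = 6). Without Uprt it had 0.0378, 0.799 and 0% in Lmna +/+ and 0, 0.158, 0.0907 and 0.0446% in Lmna F/F. The value of 0.799% lay above the lowest Lmna F/F mouse with Uprt, and the other mice without Uprt lay below all with it. Its log2 odds ratio was 4.15 ± 0.69 (SE, edgeR adjusted p = 2.67e-05).

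The whole short 3′ UTR at chr5:58070768-58070790, 23 bases with 8 T positions, had 331 conversions over 45914 covered T bases with Uprt and 9 over 25114 without. That is 0.721 against 0.0358%, a ratio of 20.1 with a 95% interval of 10.5 to 44.4 that covers counting error only. The piece at chr18:60694323-60694558 had 237 conversions over 51429 T bases with Uprt and 4 over 26210 without, a ratio of 30.2 (11.6 to 112, counting error only). The piece at chr11:45781449-45781626 had 194 over 76311 against 8 over 40819, a ratio of 13.0 (6.45 to 30.5, counting error only).

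Some of these intervals had a group without any conversion. At chr2:181484247-181484498, Lmna F/F without Uprt had 0 conversions over 12135 covered T bases, and with Uprt 103 over 32793. Against a floor of 3 conversions over the group the rate with Uprt was at least 12.7-fold higher. At chr15:66475876-66476089 the Lmna F/F rate was at least 24.8-fold higher, and in Lmna +/+ it was 0.394 against 0.0699%. At chr1:119606485-119606613 the Lmna +/+ rate was at least 15.0-fold higher, and in Lmna F/F 0.480 against 0.0525%.

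The interval at chr3:90513047-90513192 had 0 conversions over 3949 covered T bases in Lmna +/+ without Uprt, yet 2.55, 4.25, 5.19 and 4.45% in Lmna F/F without. With Uprt the Lmna +/+ mice spanned 0 to 5.60%, and the Lmna F/F mice 0.948 to 6.32%. The Lmna F/F rates with and without Uprt overlapped (4.61 against 3.85% pooled), and the fitted effect of Uprt there was -0.16 (edgeR adjusted p = 0.904). The difference between the Lmna genotypes without Uprt was not called (edgeR adjusted p = 0.235). In Lmna +/+ alone the effect was called (edgeR adjusted p = 0.00134). The call for the mean Uprt effect was lost when T>C reads were counted in place of bases (edgeR adjusted p = 0.0990). It lies 19 bases from another interval.

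A lower rate with Uprt was called at 4 short intervals (0.155%), where 0.149% of all intervals tested and 0.148% of the other intervals were. At chr5:46571686-46571956, whose reads were all multimapped (100%), the rate was 0, 3.67 and 0.280% in Lmna +/+ without Uprt and 4.88, 0.441, 4.32 and 0.417% in Lmna F/F without. With Uprt, 5 of 8 Lmna +/+ mice were at 0 and the highest had 0.154%, while the Lmna F/F mice ran from 0 to 3.70%. The log2 odds ratio was -2.83 ± 1.16 (SE, edgeR adjusted p = 0.0384), and leaving out any 1 of 7 libraries ended the call (adjusted p up to 0.173). The others were chr10:42311885-42312061 (-2.16), chr19:24932700-24932796 (-2.03) and chr3:36619657-36619876 (-0.81). At chr3:36619657-36619876 the Lmna +/+ means were 0.629% without and 0.394% with Uprt, the Lmna F/F means were 0.672 and 0.262%, and the groups overlapped. This small set also varied with 1 library left out, from 1 to 8 intervals. It was 2 without Lmna F/F Uprt replicate 3 or 6, 1 without Lmna +/+ Uprt replicate 6 or Lmna +/+ no Uprt replicate 3, and 8 without Lmna +/+ no Uprt replicate 1.

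Of the short intervals with at least 200 conversions, the next 3 lowest odds ratios (-2.06, -1.85 and -1.43) were not called by edgeR in the fit of all mice, and rates were uneven within groups. At chr15:78043663-78043809 the Lmna +/+ mice without Uprt had 0.0569, 4.44 and 3.85% and the Lmna F/F mice 0.129, 4.38, 3.48 and 4.69%. With Uprt, 6 of 8 Lmna +/+ mice lay between 4.13 and 4.66% and the other 2 at 0, while all 6 Lmna F/F mice lay at 0.326% or lower. In Lmna F/F alone that interval was called lower (log2 odds ratio -4.25, edgeR adjusted p = 0.0272), and over both genotypes it was called by DESeq2 (adjusted p = 0.0412) and by edgeR without Lmna +/+ no Uprt replicate 1 (adjusted p = 0.0357). At chr6:136849433-136849641 mice of each group lay either at 0.155% or lower or between 1.20 and 1.47%. It was called lower with edgeR without a sex term (adjusted p = 0.0472), in males alone (adjusted p = 0.0327) and with 1 library left out, which was replicate 4 of Lmna +/+ with Uprt (adjusted p = 0.0480), replicate 2 of Lmna F/F without (0.0460) or replicate 1 of Lmna +/+ without (0.0464). At chr1:82706937-82707157 the rate was 2.34, 2.74 and 3.44% in Lmna +/+ without Uprt and at most 1.07% in Lmna F/F without.

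Intervals nearest the length limit are given as a description. The 3 most read intervals of exactly 300 bases had log2 odds ratios of 0.36, 0.37 and 0.41, and the 3 of 301 bases had 0.82, 0.81 and 0.86. Only the effects of 0.82 and 0.86 were called. In the same order, 23.1, 99.7 and 0.362% of reads were multimapped at 300 bases, and 99.2, 0.0187 and 0.0568% at 301 bases. These few intervals do not show a step at the limit. At the read limit, the last 3 inside held 2001, 2002 and 2002 reads with 103, 254 and 33 conversions, and the first 3 outside held 1999, 1997 and 1994 reads with 271, 24 and 207 conversions.

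One of those intervals of 300 bases stood apart in its reads. At chr13:73465963-73466262 (plus strand, 23.1% multimapped reads) all 14 mice with Uprt lay between 128 and 187 reads per 1000000 library reads (CPM). Without Uprt the values were 1.42, 154 and 2.18 CPM in Lmna +/+ and 1.52, 2.03, 1.88 and 2.20 CPM in Lmna F/F. Lmna +/+ no Uprt replicate 2 thus lay with the mice that carry Uprt at this interval, while its median conversion rate lay with the mice without Uprt. The fit called the interval lower in Lmna F/F without Uprt (log2 fold change -4.80). Without that library the log2 fold change was 0.04 and the interval was not called (edgeR adjusted p = 0.965).

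A difference in conversions between the Lmna genotypes was called by edgeR at no short interval. Of 2581 tested, it called 0 with Uprt, where 0 of all 12062 were called (0%), and at an unadjusted p under 0.05 there were 56 higher and 21 lower in Lmna F/F. DESeq2 called 2 higher and limma 0. Without Uprt edgeR called 0 as well (0% of all), with 98 higher and 69 lower at an unadjusted p under 0.05, while DESeq2 called 3 higher and limma 1 lower. The difference of both Lmna effects was called at 0 short intervals by edgeR (0% of all), with 83 and 70 at an unadjusted p under 0.05, at 0 by limma and at 1 by DESeq2. With Uprt the median log2 odds ratio, Lmna F/F over +/+, was 0.07 at short and 0.07 at other intervals. The library medians differed by 0.0201 percentage points with Uprt, less than the SD of either group. On simulated data this test recovered 13% of 200 changes of log2 size 1, put in at intervals with at least 200 conversions. The simulation used 2 times the fitted dispersion, which can lower this share, so it may not match these data. The lack of calls does not show equal odds.

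Reads differed between the Lmna genotypes at some short intervals. In mice with Uprt, the shares called lay between those of all intervals tested and of the other intervals of the count limit. With Uprt, 84 of 2954 short intervals were higher in Lmna F/F (2.84%), where 2.18% of all 31182 intervals tested and 3.68% of the other intervals of the count limit were. Lower were 13 (0.440%), where 0.263% of all and 0.607% of the others were. The 84 had a median log2 fold change of 1.00, and 42 of them reached 1. The 13 had a median of -0.55, and 4 of them reached -1. Of the 84, 66 (78.6%) were whole short 3′ UTRs, and of the 13, 10 (76.9%) were, where 42.0% of all short intervals were. Whole short 3′ UTRs held more reads than pieces (median 11782 against 5133.5), and the part of depth in this was not tested. In bulk tissue, a change in reads cannot tell fewer cells of a type from less RNA per cell. All short intervals together had a median log2 fold change of -0.03. At the mean level of the 11 Lmna +/+ mice, 17 of the 84 would hold fewer than 2000 reads, so they reached the limit only through the Lmna F/F mice and had to be higher there. At the mean level of the 10 Lmna F/F mice, 0 of the 13 would.

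Scaling by library size alone moved both counts, and single libraries moved the smaller one. Scaled by library size alone in place of TMM, a choice added after the data were seen, 158 short intervals were higher and 5 lower, so that 96.9% of calls were higher against 86.6% with TMM. That scaling put the median log2 fold change of all intervals at 0.16 and of the short ones at 0.12, against 0.01 and -0.03 with TMM. The 13 lower intervals became 7 without Lmna F/F Uprt replicate 2, 8 without Lmna F/F Uprt replicate 3 or 5 or Lmna +/+ Uprt replicate 4 or 6, 28 without Lmna +/+ Uprt replicate 3, 21 when Lmna F/F no Uprt replicate 1 was omitted and 25 for its replicate 2. DESeq2 called 96 higher and 42 lower. In a fit of the 11 mice with Uprt and the lower numbers, 99 were higher and 59 lower.

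The largest rise was at ENSMUST00000009530.5, a whole short 3′ UTR at chrX:20740872-20740974 (plus strand, 103 bases). Its level was 2.75 to 13.1 CPM in Lmna +/+ with Uprt (median 5.93, n = 8) and 36.9 to 122 CPM in Lmna F/F with Uprt (median 87.2, n = 6). Without Uprt it was 3.49, 2.75 and 4.00 CPM in Lmna +/+ and 496, 402, 19.5 and 98.5 CPM in Lmna F/F. The genotypes did not overlap with or without Uprt. The log2 fold change was 3.84 ± 0.42 with Uprt (SE, edgeR adjusted p = 2.70e-06) and 6.63 ± 0.75 without (SE, edgeR adjusted p = 2.40e-05). With only the mice without Uprt in the fit it was 6.43 and not called (edgeR adjusted p = 0.0612). Its conversion rate was 0.113% ± 0.0994 in Lmna +/+ with Uprt (n = 8, SD), 0.106% ± 0.0275 in Lmna F/F with Uprt (n = 6, SD), 0.237% ± 0.0892 in Lmna +/+ without Uprt (n = 3, SD) and 0.119% ± 0.0385 in Lmna F/F without Uprt (n = 4, SD), and no Uprt effect was called (edgeR adjusted p = 0.0699).

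The next was ENSMUST00000009329.3 at chr11:82007461-82007625 (plus strand, 165 bases), also a whole short 3′ UTR. It had 1.31 to 5.60 CPM in Lmna +/+ with Uprt (median 3.27) and 12.8 to 31.5 CPM in Lmna F/F with Uprt (median 24.1). Without Uprt it had 1.94, 1.82 and 2.40 CPM in the Lmna +/+ mice, while the Lmna F/F mice had 72.4, 32.0, 5.26 and 38.6 CPM, again with no overlap. The log2 fold change was 2.84 ± 0.31 with Uprt (SE, edgeR adjusted p = 2.31e-06). No Uprt effect on its conversions was called (edgeR adjusted p = 0.995).

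The other 6 of the 8 largest rises had log2 fold changes of 2.01 to 2.49 with Uprt. They lay at chr2:166636096-166636308, chr4:133820847-133821037, chr12:17596147-17596282, chr8:71082043-71082192, chr17:35075350-35075544 and chr7:126298945-126299052. The intervals on chromosomes 2 and 8 held 2037 and 2196 reads in all, just above the read limit. Those on chromosomes 7, 12 and 17 held 3778, 4041 and 4354. At rises of this size, intervals with so few reads can pass the limit through the Lmna F/F mice alone. Their rises are thus given as a description. At chr4:133820847-133821037 the ranges were 2.60 to 5.47 CPM in Lmna +/+ and 14.8 to 27.2 CPM in Lmna F/F with Uprt, and without Uprt 4.00 to 5.89 against 9.01 to 57.9 CPM. At chr7:126298945-126299052, which overlaps an interval of the opposite strand, they were 1.21 to 2.48 against 5.66 to 7.73 CPM with Uprt. At chr12:17596147-17596282 the ranges were 0.729 to 3.73 and 4.48 to 11.7 CPM, and of the 7 rises whose conversions were tested this one had a called Uprt effect (log2 odds ratio 3.25, edgeR adjusted p = 0.00421).

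**Figure D4:**
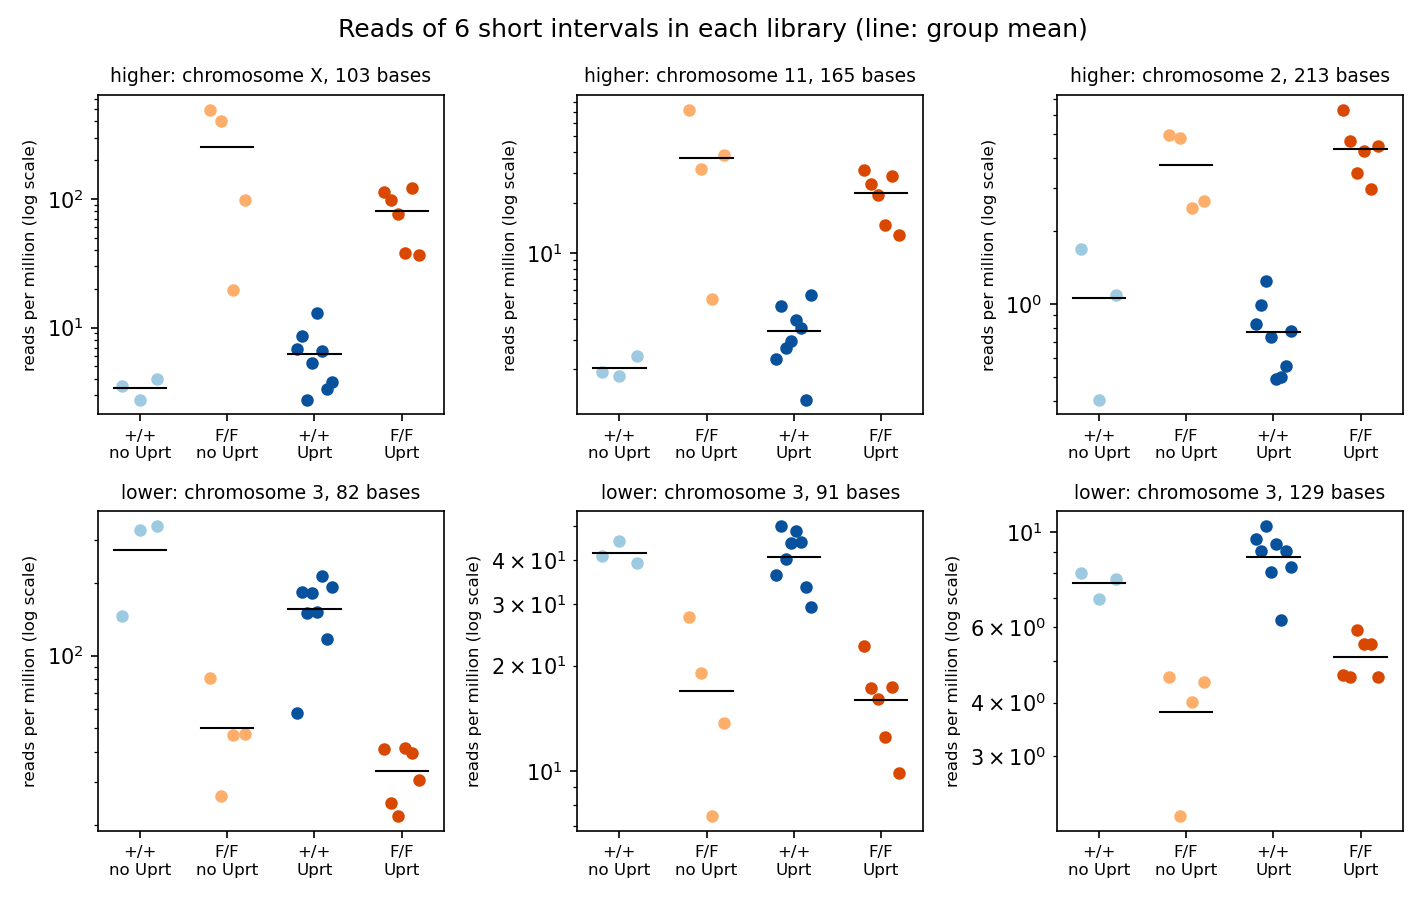
CPM on a log axis in each library of the 4 groups, with the group mean as a line, for 3 short intervals higher and 3 lower in Lmna F/F; each panel names its chromosome and length. The rises shown are the 3 largest, and the 3 falls shown all lie on chromosome 3. The larger fall on chromosome 15, whose groups overlapped with Uprt, is not shown. With Uprt the Lmna genotypes do not overlap in any panel shown, and in the chromosome X panel the Lmna F/F mice without Uprt range from 19.5 to 496.

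Of the 5 largest falls, 4 lay on chromosome 3, to which the gene table assigns Lmna, and the third largest on chromosome 15. Chromosome 3 held 170 of the 2954 short intervals. Of these 4 falls, 2 are intervals of ENSMUST00000192926.2, both on the minus strand, and are not separate observations. At chr3:63388533-63388614 (82 bases) the levels with Uprt were 57.9 to 213 CPM in Lmna +/+ (median 166) and 21.7 to 41.5 CPM in Lmna F/F (median 35.2). Without Uprt they were 145, 332 and 345 CPM against 80.9, 26.3, 46.9 and 47.5 CPM. The genotypes did not overlap, and the log2 fold change was -2.13 ± 0.23 with Uprt (SE, edgeR adjusted p = 2.31e-06) and -2.22 ± 0.32 without (SE, edgeR adjusted p = 0.000166).

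Its second interval, of 4 bases without a T, had a log2 fold change of -1.80. It lies 92 bases away and can hold the same reads, so it is no separate observation. At chr3:88390513-88390603 (91 bases) the levels with Uprt were 29.4 to 50.1 CPM for Lmna +/+ mice against 9.87 to 22.8 CPM for F/F mice, and at chr3:88457126-88457254 (129 bases) 6.24 to 10.3 against 4.58 to 5.92 CPM. Their log2 fold changes were -1.28 ± 0.17 and -0.77 ± 0.15 with Uprt (SE), and -1.08 and -0.98 without. These 4 were all the falls on chromosome 3, where 7 rises lay too. Without chromosome 3 in the fit, 77 short intervals were higher and 9 lower, as many as had lain on the other chromosomes before. Taking out these intervals removes their calls in any case, so this fit says nothing about the falls on chromosome 3. Without gene names it could not be told whether any of these falls lies in Lmna itself. Whether they go with the position of the Lmna allele was not tested.

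ENSMUST00000230340.2, a piece at chr15:78416824-78416997 (plus strand, 174 bases), was called lower in mice with Uprt, although the groups overlapped. Its levels were 1.53 to 11.5 CPM in Lmna +/+ (median 7.66) and 1.11 to 3.16 CPM in Lmna F/F (median 1.92). Its log2 fold change was -1.77 ± 0.45 with Uprt (SE, edgeR adjusted p = 0.0263) and 0.05 ± 0.60 without (SE, edgeR adjusted p = 0.983), and the interaction was not called (edgeR adjusted p = 0.629). The call was lost without Lmna +/+ Uprt replicate 1 (-1.58) or Lmna F/F Uprt replicates 1, 2, 3 or 5 (-1.71, -1.78, -1.73 and -1.63).

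The other falls were smaller. The next 3 lay at chr11:120347432-120347589 (log2 fold change -0.59), chr5:21091639-21091868 (-0.55) and chr16:57122363-57122561 (-0.54). At chr5:21091639-21091868 the ranges with Uprt overlapped, at 14.2 to 22.0 CPM in Lmna +/+ and 9.38 to 15.7 CPM in Lmna F/F, and the call was lost without Lmna F/F Uprt replicate 5 (-0.48). At chr11:120347432-120347589, 20.4 to 29.5 CPM stood against 13.9 to 18.1 CPM. Its call was lost without Lmna +/+ Uprt replicate 1, 4, 6, 7 or 8 or Lmna F/F Uprt replicate 1, 2, 3, 4 or 5, with log2 fold changes of -0.63 to -0.54. The call at chr16:57122363-57122561 was lost without Lmna +/+ Uprt replicate 1, 2, 3, 4 or 6 or Lmna F/F Uprt replicate 1, 2, 3 or 5. Scaled by library size alone, none of these 3 was called. The last 5 lay at chr18:20166119-20166379, chr4:43654229-43654319, chrX:100496972-100497147, chr2:4943118-4943154 and chrX:93460448-93460699, with log2 fold changes of -0.51 to -0.38.

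Mice without Uprt are separate animals within 1 fit. There, 112 short intervals were higher in Lmna F/F (3.79%), where 3.46% of all and 6.06% of the other intervals were. Lower were 104 (3.52%), where 1.72% of all and 3.92% of the others were. The median log2 fold change of all short intervals was -0.09 and of all intervals tested 0.03. Of the 84 intervals higher with Uprt, 65 were also called higher without, which is 77.4% of the one list and 58.0% of the other. Of the 13 lower, 5 were also lower without (38.5 and 4.81%). None was called in opposite directions. The sign was the same at all 84 and at 12 of the 13. Of the 84, 17 reached the read limit only through the Lmna F/F mice, with and without Uprt together, so their rise was partly set by the choice. Both comparisons also share 1 estimate of the spread. The agreement was not counted for the other intervals, so it describes these lists only. The interaction test called 0 short intervals (0% of all), with 142 and 74 whose unadjusted p was under 0.05. DESeq2 called 0 too.

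**Figure D5:**
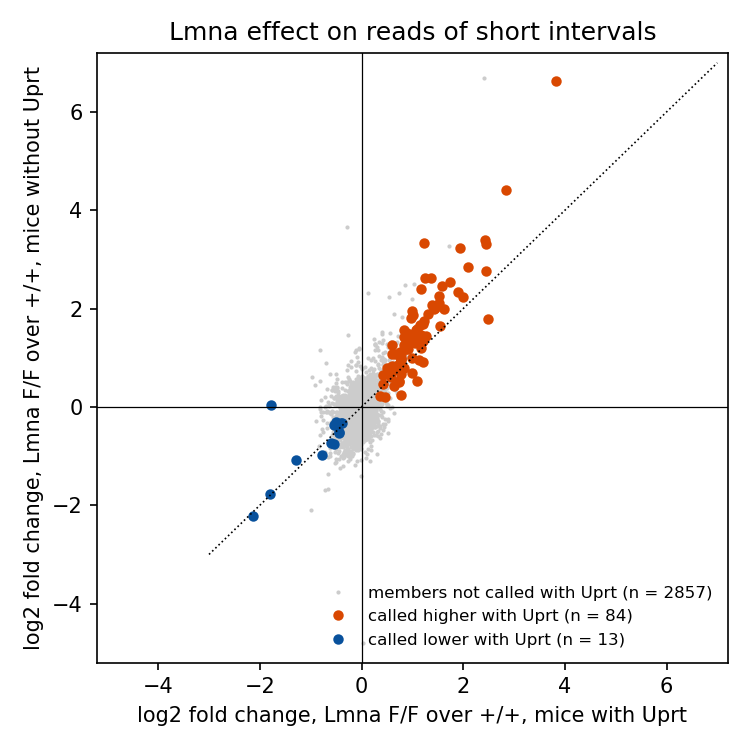
Log2 fold change of reads, Lmna F/F over +/+, in mice with Uprt (x axis) and without (y axis), for the 2954 short intervals; the 84 called higher and 13 called lower with Uprt are coloured, and the dotted line marks equal values. All 84 have a positive value on both axes, and 1 of the 13 has a value of 0.05 without Uprt.

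The counts without Uprt rest on few and uneven mice. The 112 higher became 51 when Lmna F/F no Uprt replicate 1 was left out, 71 for Lmna +/+ no Uprt replicate 1 and 67 for its replicate 2. Of the 104 lower, omitting Lmna F/F no Uprt replicate 1, 2, 3 or 4 left counts of 12, 48, 182 and 230. Omitting Lmna +/+ no Uprt replicate 1, 2 or 3 left counts of 34, 46 and 35. With only these 7 mice in the fit, 9 were called higher and 0 lower. Scaled by library size alone, 153 were higher and 56 lower, so that 73.2% of calls were higher against 51.9% with TMM, with the median of all intervals at 0.17.

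The share of intervals with a called Uprt effect on conversions was set beside the Lmna calls as a description. Of the 72 tested intervals higher in Lmna F/F with Uprt, 12 had one (16.7%), and of the 11 tested lower ones 6 had (54.5%), where 49.4% of all tested short intervals did. Without Uprt, 17 of 101 higher (16.8%) and 61 of 98 lower intervals (62.2%) had one. In Lmna +/+ with Uprt, the 84 higher intervals had a median conversion rate of 0.139%, the 13 lower ones 0.0972% and all short intervals 0.212%.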

How the data were processed

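RNA of 21 mouse hearts, 1 library per mouse, was alkylated and sequenced from the 3′ end with the QuantSeq method in single reads of 100 bases, per the labels' protocols. The authors deposited 1 table that gives each 3′ UTR interval the counts of reads, multimapped reads, T>C reads, covered T bases and conversions in each library. Per the submitters' processing notes, reads were placed on build mm39. The labels' name for the table contains slamdunk, a pipeline that maps such reads and counts T>C conversions; no source used here states its version, filters or annotation release. Score and fraction columns that the authors deposited (scaled reads and conversion rate) were not used in tests. The totals do not say at which base a conversion lies, and no filter for sequence variants is stated.

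The rule for short intervals was applied to clusters of overlapping intervals. Reads were tested with edgeR 4.0.16 (R 4.3.3), quasi-likelihood, TMM scaling and filterByExpr with a minimum count of 10, over 31182 kept intervals. Conversions were tested as converted against unconverted T bases over 12062 intervals with at least 50 conversions. Replicate numbers follow accession order. Both used 1 fit of all libraries with a sex term. Adjusted p-values are Benjamini-Hochberg over all intervals tested, with a threshold of 0.05. All Lmna +/+ mice without Uprt were male, so sex was estimated from the other groups. CPM used TMM-scaled library sizes.

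Members and lists were chosen with earlier results of these data known. Intervals described one by one were the 8 with most reads, the 8 largest Uprt effects among calls with at least 200 conversions, the 4 lowest, the 8 largest rises and falls in reads by Lmna genotype, and 3 on each side of the length limit; others were chosen after their values were seen. The 26 gene lists and the cell type markers could not be used without gene names. Alternatives included limma 3.58.1, DESeq2 1.42.0, other scaling and filters, males alone and each library left out. The tests were checked on simulated data. Intervals on ratios are exact, at 95%, and cover counting error only.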

Additional observations from a re-analysis of the deposited data

Results flagged for a closer look

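Among the intervals described one by one, 11 single mice stood apart from the rest of their group by a gap test for groups of 4 to 10 mice. It was run on 121 groups, and chance flags about 1 in 20. For conversion rates these were 0.294% in Lmna +/+ Uprt replicate 3 at chr9:66935174-66935445, 0.651% in Lmna F/F no Uprt replicate 3 at chr1:135779811-135779998, 0.187% in Lmna F/F Uprt replicate 5 at chr4:130209019-130209256, and 0.0257% in Lmna F/F no Uprt replicate 1 at chr18:60694323-60694558, where the other 3 mice of the group were at 0. At chr11:45781449-45781626, Lmna +/+ Uprt replicate 7 had 0.655%. At chr5:46571686-46571956, Lmna +/+ Uprt replicate 4 had 0.154% and Lmna F/F Uprt replicate 6 had 3.70%. At chr6:136849433-136849641, Lmna F/F no Uprt replicate 2 was the lowest of its group, at 0.155%.

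For reads, Lmna +/+ Uprt replicate 6 had 3.73 CPM at chr12:17596147-17596282. At chr7:126298945-126299052, Lmna +/+ Uprt replicate 7 had 2.48 CPM and Lmna F/F Uprt replicate 5 had 7.73 CPM, each the highest of its group.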

How the results depend on the processing

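Over the alternatives, 626 of 697 values that answer a comparison were scored as kept. A count had to stay within 1.5 times the one reported. Other values had to keep their direction and stay within the spread between mice. Counts of 0 that stayed 0 were scored as kept too, so this share does not measure how steady the other counts were. For reads with Uprt (84 higher, 13 lower), DESeq2 called 42 lower, library size alone 158 and 5, no low-count filter 130 and 99, males alone 34 and 3, and a fit of only the groups compared 69 lower. For reads without Uprt (112 and 104), the lower count was 56 with library size alone, 158 with no low-count filter and 30 in males alone, and only the groups compared gave 9 and 0. The interaction on reads gave 18 higher and 44 lower with no low-count filter, and otherwise at most 1. For the Uprt effect on conversions, males alone gave 811 higher, 370 higher and 0 lower in Lmna +/+, and 335 higher in Lmna F/F. Lower calls were 7 with no conversion filter, 7 with DESeq2 and, in Lmna +/+ with only the groups compared, 2. For the Lmna effect on conversions, DESeq2 called 2 higher with Uprt, 3 higher without and 1 higher in the interaction, limma 1 lower without Uprt, and only the groups compared 1 lower with Uprt. Mice were also split by the number in their titles, after the data were seen. The 10 from the first mouse without Uprt on gave 21 higher and 0 lower for Uprt, 0 in each genotype alone, a median log2 odds ratio of 0.84, 0 for Lmna on reads with Uprt (where the lone Lmna F/F mouse was assumed to vary like the others) and 71 higher and 8 lower without Uprt. Pooled rates there differed by 0.0721 percentage points in Lmna +/+ and 0.0570 in Lmna F/F, Uprt minus none. The 11 before gave 59 lower for Lmna on reads. The cause of these shifts was not tested. Males alone and the split by number also hold fewer mice, and the fits without a filter also test other intervals. Neither was tested as a cause.

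With each library left out in turn, the reads counts ran from 60 to 94 higher and 7 to 28 lower with Uprt, 51 to 143 higher and 12 to 230 lower without, and 0 to 1 for the interaction. Uprt calls ran from 1121 to 1291 higher and 1 to 8 lower, in Lmna +/+ from 413 to 714 and 2 to 6, and in Lmna F/F from 708 to 918 and 1 to 4. Calls for Lmna on conversions without Uprt, and for its interaction, ran from 0 to 1, and with Uprt stayed at 0. The median log2 odds ratio ran from 1.07 to 1.21. One called direction reversed: at chr13:73465963-73466262 the Lmna effect without Uprt was -4.80, ran from -5.38 to 0.041 with 1 library left out, and was 0.041 without Lmna +/+ no Uprt replicate 2. Lmna effects without Uprt that were not called also changed sign, at chr15:78416824-78416997 (0.05, from -0.89 to 0.59 with 1 library left out) and chr10:12884628-12884927 (-0.05, from -0.14 to 0.10).

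No paired analysis was possible because the groups share no number in the labels: each mouse has a number of its own, and no litter is named. Read depth limits rare conversions: 373 short intervals had too few to test.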
